A study of Arabidopsis thaliana with 3 samples.

Results

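Plastocyanin, the cytochrome b6f complex, ferredoxin and ferredoxin-NADP+ reductase (FNR) carry electrons through the second leg of photosynthetic electron transport, and the nuclear genes PETE1, PETE2, PETC, PETM, FD1, FD2, FNR1 and FNR2 of Arabidopsis encode 8 of these carriers or subunits. The genes were chosen by locus code, and 7 of the 8 were measured, by 21 probes, among 24658 genes on the arrays; FD2 (AT1G60950) was not analysed here. Transcript levels in rosettes of the lsm1a lsm1b double mutant were compared with those of Col-0, the wild type, on 3 two-colour arrays, each holding RNA of both genotypes from 1 biological replicate. The mutant is named for both Arabidopsis copies of LSM1, the subunit that sets the cytoplasmic LSM1-7 ring apart and through which that ring promotes decapping and decay of messenger RNAs. The mutant RNA was labelled with Cy3 on arrays 1 and 3 and with Cy5 on array 2, and Col-0 RNA with the other dye. The sample characteristics give rosettes of plants 2 weeks old, and the growth protocol gives 16 h of light and 8 h of dark at 22 °C for both genotypes; the sample descriptions instead give plants 3 weeks old after 1 day at 4 °C, so the age and temperature behind the comparison are unsettled. The sources used here give neither the nature of the mutant alleles nor the number of plants behind each RNA.

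In the light reactions, electrons leave photosystem II through plastoquinone and reach the cytochrome b6f complex, which passes them to plastocyanin, a small copper protein of the thylakoid lumen. Plastocyanin reduces photosystem I, and photosystem I reduces ferredoxin, an iron-sulphur protein of the stroma. FNR then moves electrons from ferredoxin to NADP+, and ferredoxin also feeds nitrite reduction, glutamate and sulphide synthesis, thioredoxin reduction and cyclic electron flow. In Arabidopsis leaves PETE2 is the more abundant plastocyanin and FD2 the more abundant ferredoxin.

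Every value is a log2 ratio of lsm1a lsm1b over Col-0 within an array, as normalized by the authors, and a gene's value on an array is the mean of its probes. The direction is likely but unproven. In its favour, the labels list the mutant as channel 1 in all samples, also in the dye-swapped one, with Col-0 as control. Against it, the titles of the samples begin with Col-0. The dye-swapped array correlated above 0 with the others (Pearson r = 0.427 and 0.452 over genes, against 0.745 between arrays 1 and 3), and the ratios were therefore read as already turned to 1 direction, a reading that was not tested. Should the sign be the opposite one, PETE1 would be higher in the mutant and all other directions would turn with it, with sizes and p-values as given. The median standard deviation (SD) of a gene between arrays was 0.185, and 298 of the 24658 genes (1.21%) had an adjusted p under 0.05 in limma's moderated test of the mean ratio against 0, with Benjamini-Hochberg adjustment over all genes. Ratios hold no level, so the abundance of a transcript, and the tissue label through its markers, could not be checked. In whole rosettes, fewer cells of a type and less RNA per cell cannot be told apart.

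PETE1 was lower in the mutant, at 51.4% of its Col-0 level, and it was the single carrier gene that passed the test. PETE2, the other plastocyanin gene, was lower on the arrays with the mutant in Cy3 and near 0 on the array with the dyes swapped. PETC and FD1 lay near 0 in the mean, FNR1 lay slightly below 0 and PETM slightly above it. FD1 and FNR2 changed sign between array 2 and the other arrays. Of the 7 measured genes 1 was called, a lower one; over all genes tested, 0.584% were called lower and 0.625% higher. The median of the 7 mean ratios was -0.079, beside 0.0067 over all genes.

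**Figure D1:**
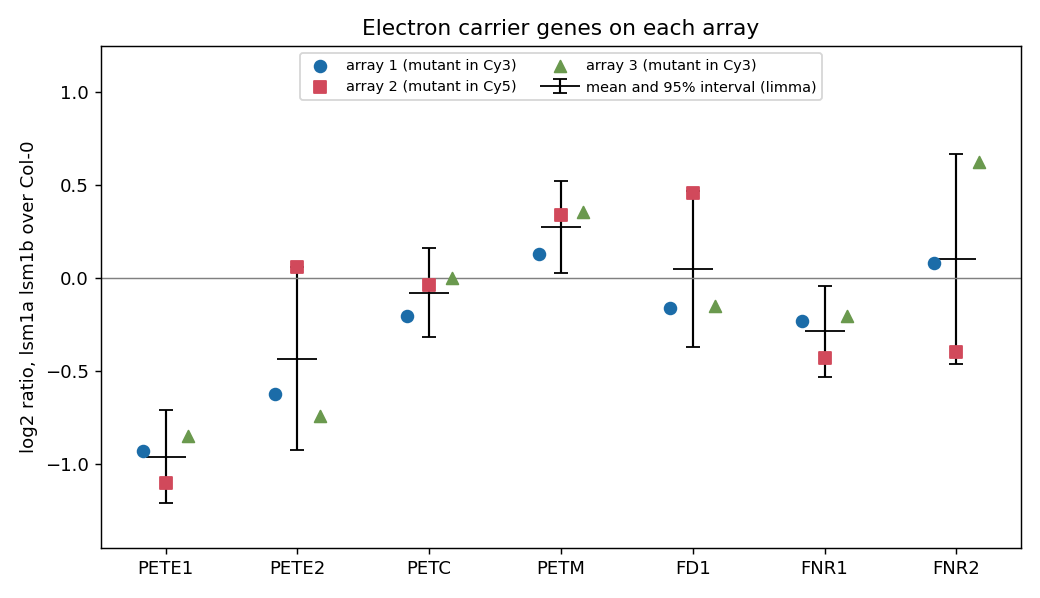
Log2 ratio of lsm1a lsm1b over Col-0 (vertical axis) for the 7 measured electron carrier genes, with 1 point per array and the mean with its 95% interval from limma in black. The 3 points of PETE1 lie between -1.10 and -0.85. For PETE2, FD1 and FNR2 array 2 lies on the other side of 0 from arrays 1 and 3. All points of PETC, PETM, FD1 and FNR1 stay within 0.50 of 0.

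PETE1 (AT1G76100) stood at -0.93 on array 1, -1.10 on array 2 and -0.85 on array 3. All 3 arrays gave nearly the same ratio, and the array with the swapped dyes gave the largest fall. The mean was -0.96 ± 0.13 (SD, n = 3 arrays), a 1.95-fold lower level (adjusted p = 0.0424, limma), with a 95% interval of 43.2% to 61.1% of the Col-0 level. Of all genes tested, 311 (1.26%) had a lower mean ratio. PETE1 was measured by 1 probe, so no other probe of the gene could be set beside it. The call is close to the threshold: with a dye term in the model the mean was -0.995 (adjusted p = 0.0705), with the arrays brought to 1 scale it was -0.96 (adjusted p = 0.0514), and with p-values adjusted over all probes in place of genes it was -0.96 (adjusted p = 0.0531). Leaving out array 1, 2 or 3 moved the mean to -0.975, -0.89 or -1.015 (adjusted p = 0.295, 0.0737 and 0.24, in this order, in limma).

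PETE2 (AT1G20340, named DRT112 in the gene table) stood at -0.622, 0.062 and -0.742 on arrays 1, 2 and 3. Arrays 1 and 3, with the mutant in Cy3, were low, and array 2, with the dyes swapped, was not. The mean was -0.43 ± 0.43 (SD, n = 3) and did not pass (adjusted p = 0.3, limma), with a 95% interval from 52.6% to 104% of the Col-0 level. The SD was larger than that of 86.7% of all genes. Without array 2 the mean was -0.68 (adjusted p = 0.075, limma). A dye term, which weights the dye orientations equally, gave -0.31 (adjusted p = 0.126, limma).

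The 5 probes of PETE2 did not all behave alike. On arrays 1 and 3 the probe with the lowest mean gave -1.08 and -1.25, and 4 of the 5 probes lay below 0 on both of these arrays. On array 2 the probes ran from -0.18 to 0.30, with 2 of 5 below 0. A single probe, with a mean of -0.47 ± 0.30, was below 0 on all 3 arrays, at -0.77, -0.17 and -0.46. The fifth probe stood at 0.18, -0.18 and 0.09, opposite in sign to the other 4 on arrays 1 and 3. This probe is tied to the gene through its symbol in the platform annotation, whereas the accession of the other 4 is the gene's own RefSeq transcript. With accession-matched probes alone the mean of PETE2 was -0.55 (adjusted p = 0.308, limma), a setting chosen after the values were seen.

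**Figure D2:**
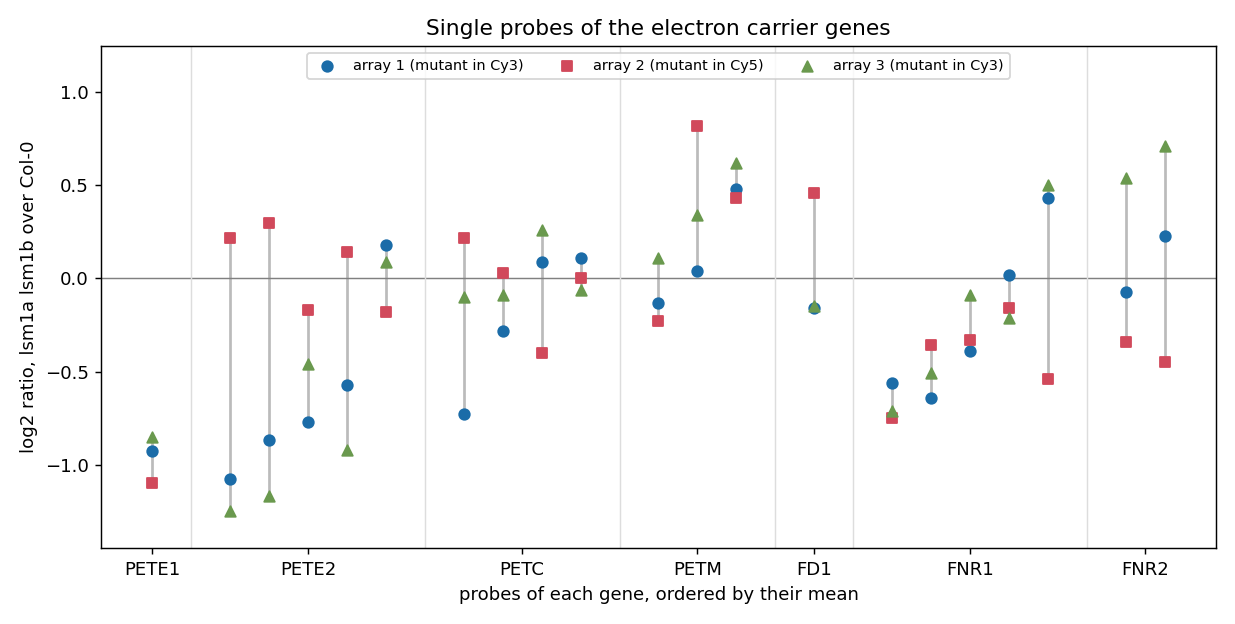
Log2 ratio of lsm1a lsm1b over Col-0 (vertical axis) for each of the 21 probes of the 7 genes, grouped by gene and ordered by probe mean, with 1 point per array and a grey line over their range. The 3 arrays lie close together for the PETE1 probe and the lowest FNR1 probe, and array 2 lies on the other side of 0 from arrays 1 and 3 for 4 of the 5 PETE2 probes.

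The plastocyanin copies were set against each other within each array. PETE1 minus PETE2 was -0.308, -1.162 and -0.108 on arrays 1, 2 and 3, a mean of -0.53 ± 0.56 (SD, n = 3). PETE1 was the lower of the pair on every array, by little on arrays 1 and 3 and by more on array 2. An exact sign-flip permutation test gave p = 0.25 (two-sided; 0.25 after adjustment over 2 pairs), the smallest p that 3 arrays allow, so the difference could not have passed. Probes of related copies can share signal, which was not tested.

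Of the cytochrome b6f complex, PETC and PETM were measured. PETC (AT4G03280) encodes the Rieske iron-sulphur protein, the subunit that takes electrons from plastoquinol, and stood at -0.202, -0.037 and 0.0025 on arrays 1, 2 and 3. No array was far from 0, and the mean was -0.079 ± 0.11 (SD, n = 3; adjusted p = 0.761, limma). Its 95% interval ran from 80.2% to 112% of the Col-0 level, so a change of the size of that of PETE1 lies outside it. The 4 probe means of PETC lay between -0.20 and 0.017, the highest from a probe tied to the gene through its symbol. With accession-matched probes alone, a setting chosen after the values were seen, the mean was -0.11 (adjusted p = 0.69, limma). Within an array the probes spread more, from -0.73 to 0.11, -0.40 to 0.22 and -0.10 to 0.26 on arrays 1, 2 and 3. The interval of PETC is that of ratios averaged over probes and does not count this spread. PETM (AT2G26500), named in the gene table by its locus code only, encodes a small subunit of the complex and stood at 0.13, 0.34 and 0.36. All 3 arrays were above 0, as for 19.7% of all genes. Its mean was 0.28 ± 0.13 (SD, n = 3; adjusted p = 0.214, limma), with an interval from 102% to 144% of the Col-0 level. Its 3 probes differed: means were -0.083, 0.40 and 0.51, and the highest of them gave 0.48, 0.43 and 0.62.

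FD1 (AT1G10960), the minor leaf ferredoxin of the FD1 and FD2 pair, stood at -0.16, 0.46 and -0.15 on arrays 1, 2 and 3, by 1 probe. Arrays 1 and 3 agreed closely, and array 2 lay on the other side of 0. The mean was 0.05 ± 0.36 (SD, n = 3; adjusted p = 0.94, limma), with an interval from 77.3% to 139% of the Col-0 level. Without array 2 its mean was -0.155 (adjusted p = 0.282, limma), so the sign of FD1 rests on that array.

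FNR1 (AT5G66190), a leaf FNR, stood at -0.228, -0.428 and -0.204. All arrays were below 0, as for 18% of all genes, and array 2 was the lowest. The mean was -0.29 ± 0.12 (SD, n = 3) and did not pass (adjusted p = 0.199, limma); the interval ran from 69.1% to 97.3% of the Col-0 level before any adjustment for the number of genes. The probes of FNR1 were spread from a mean of -0.67 to 0.13. The lowest gave -0.56, -0.75 and -0.71 (adjusted p = 0.0724 in limma over all probes, a test that 0 of the 21 carrier probes and 0.626% of all probes passed), and 3 of the 5 were below 0 on all arrays, beside 17.4% of all probes. The highest gave 0.43, -0.54 and 0.50 and so changed sign with the dye orientation. Probe means of PETE2, PETM and FNR1 were more than 0.5 apart, as in 10.3% of all genes with several probes; that gap widens with the number of probes, and no allowance for it was made.

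FNR2 (AT1G20020), the other leaf FNR, stood at 0.08, -0.395 and 0.625. Array 3 was high, array 2 low and array 1 near 0, and the SD of 0.51 exceeded that of 91.3% of all genes. The mean was 0.10 (n = 3; adjusted p = 0.9, limma), with an interval from 72.6% to 159% of the Col-0 level, which takes in falls and rises of moderate size. Both probes showed the same order of arrays, with -0.07, -0.34 and 0.54 for the lower and 0.23, -0.45 and 0.71 for the higher. The lower probe is tied to the gene through its symbol. With the accession-matched probe alone, a setting chosen after the values were seen, the mean was 0.16 (adjusted p = 0.833, limma). FNR1 minus FNR2 was -0.308, -0.033 and -0.829, a mean of -0.39 ± 0.40 (SD, n = 3). FNR1 was the lower of the pair on each array, with the smallest gap on array 2, and the exact sign-flip permutation test again gave its smallest possible p of 0.25 (two-sided).

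Several carriers differed in sign between the dye orientations. PETE2, FD1 and FNR2 had 1 sign on arrays 1 and 3 and the other on array 2. That makes 3 of 7, beside 32.4% of all genes and 14 of the 52 partner genes described below. Whether 3 of 7 differs from these shares was not tested. By single probes the count was 10 of 21, with 4 in PETE2 and 3 in PETC, beside 34% of all probes. Array 2 lay above the mean of arrays 1 and 3 by 0.74 for PETE2 and by 0.62 for FD1, and below it by a difference of -0.75 for FNR2. PETE1 differed by -0.21 and FNR1 by -0.21, in both cases with array 2 further from 0. The differences thus ran in both directions among the carriers, and dye and replicate cannot be told apart, since array 2 is the only array of its orientation.

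**Figure D3:**
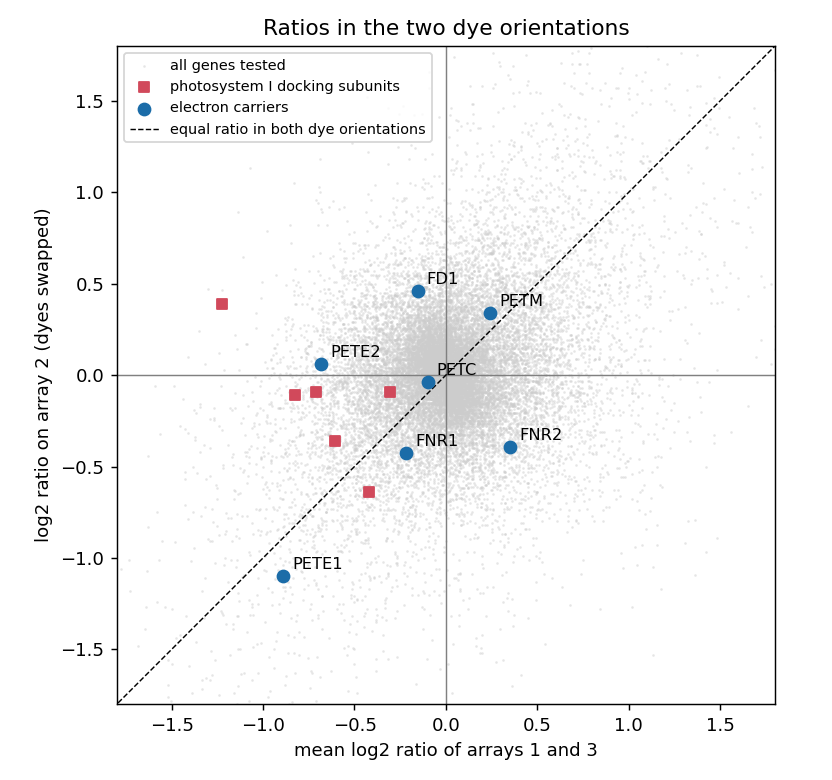
Log2 ratio on array 2, with the dyes swapped, against the mean log2 ratio of arrays 1 and 3, for the 7 electron carriers, the 6 photosystem I docking subunits and all genes tested (grey; genes beyond the axes are not drawn). PETE1 lies near the dashed line of equal ratios, and PETE2, FD1 and FNR2 lie where the orientations differ in sign.

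Genes that work next to the carriers were described from lists chosen for their roles, with 52 of 61 genes measured. None of the 52 passed the test in limma, beside 1.21% of all genes, and 20 had an unadjusted p under 0.05 (4946 of all genes, 20.1%). Their median mean ratio was -0.042.

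The subunits of photosystem I that dock plastocyanin or ferredoxin lay below 0. All 6 means were below 0, beside 48.2% of all genes, and 5 of 6 genes were below 0 on all 3 arrays, beside 18%. Their median was -0.52, with -0.62, -0.10 and -0.65 on arrays 1, 2 and 3, so the median was closest to 0 on array 2. PSAF, which binds plastocyanin in the lumen, stood at -1.36, 0.39 and -1.09, a mean of -0.69 ± 0.94 (SD, n = 3; adjusted p = 0.413, limma), and changed sign on array 2. PSAN, a small lumenal subunit near that site, had the mean closest to 0, at -0.23 ± 0.19 (SD, n = 3; adjusted p = 0.338, limma). PSAD and PSAE form the stromal side at which ferredoxin docks, and the means of their 4 genes are among the 6. PSAD1, PSAD2, PSAE1 and PSAE2, the rest of the list, were named after their values were seen. Their means were -0.53, -0.49, -0.59 and -0.50 (adjusted p = 0.0857, 0.101, 0.209 and 0.192, in this order, in limma). Of the 6 genes 0 passed, and 4 had an unadjusted p under 0.05, beside 20.1% of all genes. Lower photosynthesis genes in these samples were known when this list was chosen, so its direction is not independent evidence.

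Of 3 proteins listed with FNR at the membrane, 2 were measured, and their means were below 0. TROL, which anchors FNR to the thylakoid, stood at -0.52, -0.42 and -0.80, a mean of -0.58 ± 0.19 (SD, n = 3; adjusted p = 0.0872, limma), and its 4 probe means lay between -0.61 and -0.56. LIR1, a light-regulated protein that binds FNR, ran from -0.59 on array 1 to 0.35 on array 3 (mean -0.10; adjusted p = 0.895, limma).

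The ferredoxin and FNR isoforms outside leaf photosynthesis showed no common direction. Of the 6 measured, 4 had a mean above 0, beside 51.8% of all genes, and 3 were above 0 on all arrays, beside 19.7%. FD3 and FD4, named after their values were seen, lay at 0.0033 and -0.013. RFNR1, a root-type FNR, stood at 0.92, 0.43 and 0.15, a mean of 0.50 ± 0.39 (SD, n = 3; adjusted p = 0.215, limma). RFNR2, the other root-type FNR and named after its values were seen, stood at 0.85, 0.11 and 0.44. Its mean was 0.47 ± 0.37 (SD, n = 3, adjusted p = 0.225, limma). MFDX2, a mitochondrial ferredoxin, stood at -0.41, 0.22 and -0.325 (mean -0.17; adjusted p = 0.665, limma). The difference between these isoforms and the leaf carriers was not tested.

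Among the remaining partner genes, PGRL1B, a thylakoid protein of cyclic electron flow, was above 0 on every array at 0.43, 0.45 and 0.40, a mean of 0.43 ± 0.024 (SD, n = 3; adjusted p = 0.0872, limma). PGR5, which acts with it, stood at -0.038 (adjusted p = 0.906, limma). The 8 ferredoxin-dependent enzymes had 4 means below and 4 above 0, from FTRA1, a subunit of ferredoxin-thioredoxin reductase, at -0.23 ± 0.23 to HY2, the bilin reductase of phytochrome chromophore synthesis, at 0.50 ± 0.23 (SD, n = 3; adjusted p = 0.401 and 0.12, limma). Assembly factors of the cytochrome b6f complex had 3 of 7 means below 0, from CCDA, a thylakoid thiol transporter, at -0.39 ± 0.25 to CCB4, a haem attachment factor, at 0.35 ± 0.14 (SD, n = 3; adjusted p = 0.198 and 0.157, limma). For the chloroplast ATP synthase, ATPC2, a minor form of the gamma subunit, stood at 0.36 ± 0.032 and ATPD, the delta subunit, at -0.05 ± 0.23 (SD, n = 3; adjusted p = 0.11 and 0.919, limma).

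**Figure D4:**
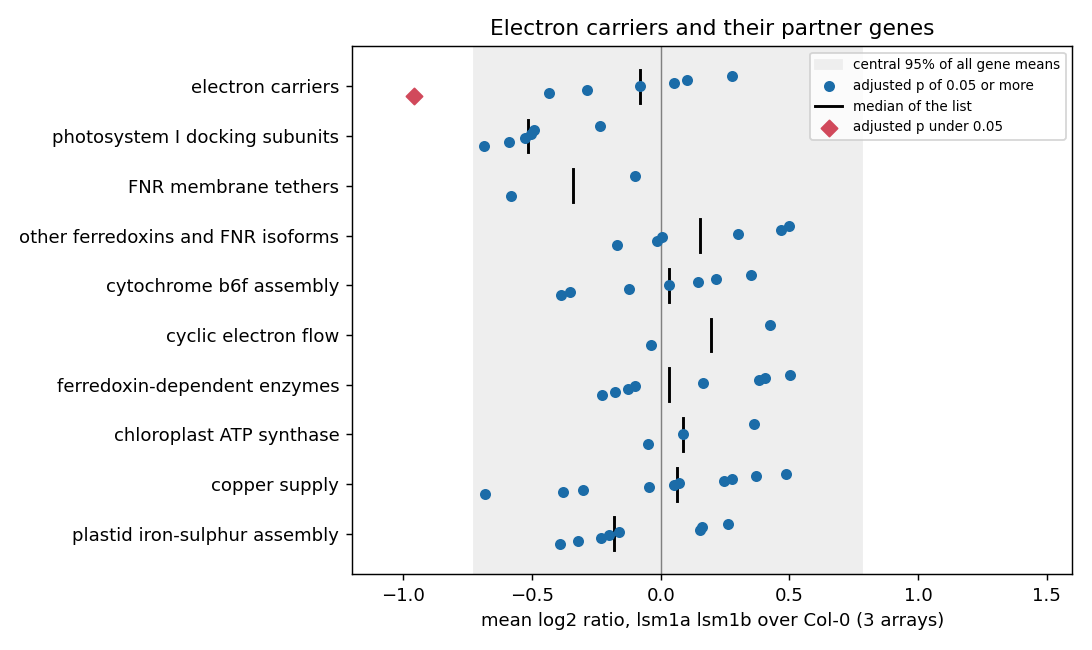
Mean log2 ratio of lsm1a lsm1b over Col-0 over 3 arrays (horizontal axis) for each measured gene of the electron carriers and of 9 lists of partner genes, with the list median as a black line and the central 95% of all gene means, -0.72 to 0.78, shaded. PETE1 is the single gene past the test and the single one outside the shaded range; the photosystem I docking subunits all lie below 0.

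Of 21 marker genes of tissues and cell types, 0 passed in limma, beside 1.21% of all genes. With so few genes, 0 calls do not set the markers apart from all genes. An unadjusted p under 0.05 was found for 1 of 21, beside 20.1% of all genes. That was the root gene WOX5, at 0.65 (adjusted p = 0.0603, limma), named after its value was seen. The median of the 21 means was -0.052. The root list as a whole had a median of -0.01, with 3 of 5 means below 0. The mesophyll genes CA1 and RCA, the whole of that list, which encode carbonic anhydrase and Rubisco activase, stood at 0.24, -0.72 and 0.14 and at -0.52, -0.081 and -1.32 on arrays 1, 2 and 3. Their means of -0.12 and -0.64 did not pass (adjusted p = 0.889 and 0.274, limma), and a part of cell composition in the PETE1 ratio was not tested.

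The genes whose ratios over the 3 arrays were closest to the carriers' mean ratios of -0.28, -0.16 and -0.14 were AT5G60980, AT5G44290, AT5G06970, PC-MYB1 (AT4G32730) and AT5G36210, at Euclidean distances of 0.016 to 0.041 on the log2 scale. With 3 arrays and ratios this close to 0, such likeness is a description of these arrays.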

How the data were processed

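The values are the log2 ratios, 1 per probe and array, that the authors deposited after normalization. The submitters' processing notes name limma and no version. Background correction, normalization method, log base and sign of the ratios were not given in the sources used here. Base 2 was inferred from the range of -6.76 to 5.87. Column medians were 0, 0.01 and -0.01. No intensities were used, so dim probes went unmarked, and precision is limited by the 3 arrays. Of 43656 rows, 55 were control features. Of the other 43601 probes, 34342 had 1 gene symbol in the platform annotation, 0 several and 9259 none. Through RefSeq TAIR10.1, 32225 were matched by accession and 2053 by symbol or synonym, 39 were left unnamed because the names conflicted and 25 had no match. The 34278 named probes gave 24658 genes. No array build is named, so no coordinates are given.

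Gene means were tested with limma 3.58.1 in R 4.3.3 (intercept only, two-sided, Benjamini-Hochberg over all genes); the code was tested on simulated data. The members and lists were chosen with earlier results of these data known. Named by rule are all members and, of each partner list, the genes past the threshold or else the highest and lowest mean. The likeness rule takes the 5 nearest genes. PSAD1, PSAD2, PSAE1, PSAE2, FD3, FD4, RFNR2, CSD1, CSD2, PAA1 and PAA2 were named outside these rules. Alternatives were a dye term, leaving out each array, scaling, centring, median over probes, single probes, robust eBayes and accession-matched probes.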

Additional observations from a re-analysis of the deposited data

How the results depend on the processing

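The call of PETE1 was lost with a dye term (-0.995), with scaled arrays (-0.96), with every probe tested on its own (-0.96) and on leaving out any array (-1.015 to -0.89), and was kept with centring, the probe median, robust eBayes and accession-matched probes. Its unadjusted p stayed between 0.000279 and 0.00411. Carriers called thus fell from 1 to 0 with a dye term, scaling, single probes or without any array. Over all genes, 298 calls became 0 with a dye term (6384 with an unadjusted p under 0.05), 0 without any array (2544 to 7327), 76 with scaled arrays and 180 with robust eBayes; 72 of the 76 and all 180 were among the 298. Fewer arrays or fewer degrees of freedom enter the fits without an array or with the dye term. The cause of the lost calls was not tested for any setting. FNR2 turned to -0.021 with the dye term, and its means without 1 array ran from -0.158 to 0.353; those of FD1 ran from -0.155 to 0.155. PETE2, PETC, PETM and FNR1 kept their direction and did not pass in any of the 9 alternatives each. The paralog differences kept their sign, from -0.735 to -0.208 for PETE1 minus PETE2 and from -0.569 to -0.171 for FNR1 minus FNR2 without 1 array. FD1 minus FD2 was not run, since FD2 was not analysed. The median of the carriers' means ran from -0.158 to -0.0175 without 1 array. The partner lists held 0 calls in all alternatives. No block on the replicate number was fitted: each ratio compares both genotypes within an array, so the test of the 3 ratios is itself the paired analysis.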

Other observations

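Plastocyanin needs copper and ferredoxin an iron-sulphur cluster, and genes of both supplies were measured. The copper supply list also holds the superoxide dismutase genes CSD1, CSD2 and FSD1, which do not themselves supply copper. Of its 10 genes, 3 were below and 3 above 0 on all 3 arrays, beside 18% and 19.7% of all genes. FSD1 is among those below and CSD2 among those above. In limma 0 of the 10 passed, beside 1.21% of all genes, and 4 had an unadjusted p under 0.05, beside 20.1%. FSD1, an iron superoxide dismutase, had the lowest mean of the list, at -0.525, -1.28 and -0.24 (mean -0.68 ± 0.54, SD, n = 3, adjusted p = 0.201, limma). The copper transporter gene COPT2 had the highest, at 0.305, 0.965 and 0.195 (mean 0.49 ± 0.42, SD, n = 3, adjusted p = 0.241, limma). The copper status of the plants was not tested. PAA1 and PAA2, named after their values were seen, encode the pumps that move copper into the chloroplast and on into the thylakoid, where plastocyanin takes it up. PAA1 stood at -0.415, -0.225 and -0.505 and PAA2 at -0.49, -0.18 and -0.24. Both were below 0 on every array, as for 18% of all genes, and did not pass (adjusted p = 0.137 and 0.211, limma). Of 8 plastid iron-sulphur assembly genes, 4 were below and 2 above 0 on all 3 arrays, beside 18% and 19.7% of all genes. Again 0 passed in limma, beside 1.21% of all genes, and 2 had an unadjusted p under 0.05, beside 20.1%. NFS2, the cysteine desulphurase that supplies the sulphur, stood at -0.39 ± 0.32, and SUFE1, its activator, at 0.26 ± 0.32 (SD, n = 3; adjusted p = 0.247 and 0.439, limma).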
